A study of Mus musculus with 22 samples.

Results

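The transcripts described here are those of 9 C-type lectin receptors of myeloid cells, Clec4a1, Clec4a2, Clec4a3, Clec4d, Clec4e, Clec4n, Clec5a, Clec7a and Clec12a, picked by symbol out of 23420 gene symbols counted by RNA-sequencing. All 9 were among the 14458 genes that passed the filter on low counts. The receptors were followed in inguinal white adipose tissue (IWAT) of wildtype C57Bl/6 female mice, about 20 weeks old when they were injected, that had been fed regular chow (lean, 5 mice) or a high fat diet (HFD, 60% of energy from fat; obese, 6 mice) for 16 weeks. Each mouse carried E0771 cells, a mouse breast cancer line derived from the same strain, in PBS and Matrigel in the left fat pad (tumor-associated IWAT) and PBS with Matrigel alone in the right pad (control IWAT), and both pads were collected 2 weeks later, so that there were 4 groups and 22 libraries. All mice thus carried a tumor, and the control pad came from a tumor-bearing animal. The inguinal lymph node and material bordering the tumor had been discarded, and ribosomal RNA was depleted before sequencing.

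C-type lectin receptors are surface proteins with which macrophages, monocytes, neutrophils and dendritic cells bind sugars and lipids of microbes and products of damaged cells. The activating receptors pass their signal through an ITAM, a tyrosine motif carried by a partner chain such as FcRγ (encoded by Fcer1g) or DAP12 (Tyrobp) or by the receptor tail itself, to the kinase Syk and the Card9-Bcl10-Malt1 scaffold, which leads to cytokine transcription. Inhibitory receptors carry an ITIM in their own tail and recruit the phosphatases SHP-1, SHP-2 and SHIP-1 (Ptpn6, Ptpn11, Inpp5d). Mincle (Clec4e), in particular, is known for its expression in macrophages of obese adipose tissue, where it has been linked to crown-like structures and fibrosis.

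All 9 genes lie on chromosome 6 in the GRCm38 assembly. A run of 6 of them, in the order Clec4a1, Clec4a3, Clec4a2, Clec4n, Clec4d and Clec4e, spans 368 kb (chr6:122921848-123289870), and Clec4d and Clec4e are neighbours separated by 6.52 kb. Clec12a and Clec7a lie together within 130 kb (chr6:129342691-129472779), and Clec5a stands apart at chr6:40574894-40585821 on the minus strand. Clec7a is annotated as a polymorphic pseudogene in GENCODE M21, the other 8 as protein coding. Of the 50-base words in its transcripts, Clec4a2 shares 6.69% with other genes, mainly Clec4a4 and Clec4b1 of the same family, so that its count may include or lose reads of these relatives, whereas the share was at most 0.686% for the other 8.

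The 250 bases before the RefSeq transcription start (GRCm38.p6) are shown for 3 members, written 5′ to 3′ on the strand of the gene. Clec4d and Clec4e are shown because they are neighbours with the lowest levels in lean control IWAT, and Clec7a because it was called in no comparison. Capitals mark the letters of 4 motifs searched on both strands: the PU.1 word GAGGAAG, the C/EBP word TTNNGCAA, the AP-1 word TGANTCA and the NF-kB word GGGA followed by any 4 bases and CC.
Clec4d, chr6:123261857-123262106, plus strand: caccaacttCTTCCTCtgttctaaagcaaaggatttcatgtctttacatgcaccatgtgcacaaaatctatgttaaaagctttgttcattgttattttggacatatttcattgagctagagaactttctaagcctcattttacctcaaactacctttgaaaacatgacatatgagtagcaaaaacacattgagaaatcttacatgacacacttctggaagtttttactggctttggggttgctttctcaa
Clec4e, chr6:123289872-123290121, minus strand: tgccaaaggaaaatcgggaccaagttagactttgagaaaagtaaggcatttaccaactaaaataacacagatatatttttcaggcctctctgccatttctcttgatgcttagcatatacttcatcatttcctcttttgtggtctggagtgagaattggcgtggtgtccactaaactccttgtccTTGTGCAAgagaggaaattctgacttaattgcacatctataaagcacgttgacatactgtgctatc
Clec7a, chr6:129472786-129473035, minus strand: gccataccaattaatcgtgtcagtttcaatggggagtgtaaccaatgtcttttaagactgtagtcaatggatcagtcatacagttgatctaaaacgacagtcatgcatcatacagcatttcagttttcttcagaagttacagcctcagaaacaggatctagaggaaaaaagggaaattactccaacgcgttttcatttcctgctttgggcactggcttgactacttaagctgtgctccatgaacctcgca
Clec4d holds 1 PU.1 word on the opposite strand 241 bases before the start, Clec4e holds 1 C/EBP word 66 bases before the start, and Clec7a holds none of the 4 in this window. Starts were given for 8 of the 9 members (Clec4n had none). The PU.1 word was found for 4 of these 8 genes (Clec4a1, Clec4d, Clec5a and Clec12a) and in 10.6% of the 32851 promoters of the table, and the C/EBP word for 2 (Clec4e and Clec12a) and in 9.56%. The AP-1 word, in 6.75% of all promoters, occurred for Clec12a, and the NF-kB word, in 17.6%, for Clec4a1. These are matches of letters and not measured binding.

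Sequencing depth was similar over the groups, with 5759775 to 8598108 reads counted on genes per library. Values are given as CPM, counts scaled to a common library total, after TMM normalization, which evens out library composition. A gene was called different when the edgeR quasi-likelihood test, fitted to all 22 libraries as 4 groups, gave a Benjamini-Hochberg adjusted p under 0.05 over the 14458 genes tested, and log2 fold changes are given with their standard error (SE). The adipose label was borne out by adipocyte transcripts (Adipoq, Plin1, Lep, Cidec, Fabp4 and Lpl), which summed to 2201 to 29049 CPM over the libraries. A list of 5 lymphocyte genes, among them Cd3e, Cd3d, Ms4a1 and Cd79a, summed to at most 9.17 CPM in 18 libraries but to 350.5 and 320.5 CPM in the control pads of obese mice 1 and 3, 86.5 CPM in the tumor-associated pad of obese mouse 3 and 46.7 CPM in the control pad of lean mouse 2. For the 9 receptors, calls that were lost without these 4 libraries, and values that moved strongly, are given with both values. Genes of the other lists named below were not checked in this way.

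Compared per kilobase of exon, on the RPKM scale, Clec4a3 had the highest mean level and Clec4e the lowest in every group. In lean control IWAT the mean levels were 9.06 RPKM for Clec4a3, 6.77 for Clec4a1, 5.12 for Clec7a, 3.57 for Clec4a2, 2.03 for Clec12a, 1.43 for Clec4n, 0.423 for Clec5a, 0.189 for Clec4d and 0.0416 for Clec4e (n = 5). Neighbours in this order overlapped between libraries except Clec4n and Clec5a. In obese tumor-associated IWAT the order of mean levels was Clec4a3 (37.3 RPKM), Clec4a1 (22.9), Clec4a2 (13.1), Clec4n (12.0), Clec7a (8.41), Clec12a (6.66), Clec4d (6.30), Clec5a (2.29) and Clec4e (1.33; n = 6), and the neighbours that did not overlap were Clec4a1 and Clec4a2, and Clec4d and Clec5a. Clec7a thus stood 3rd in lean control, 2nd in obese control and 5th in both tumor-associated groups, while Clec4n moved from 6th in both control groups to 3rd and 4th. Exon lengths were taken from GENCODE M21, which need not be the annotation the reads were counted on.

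**Figure D1:**
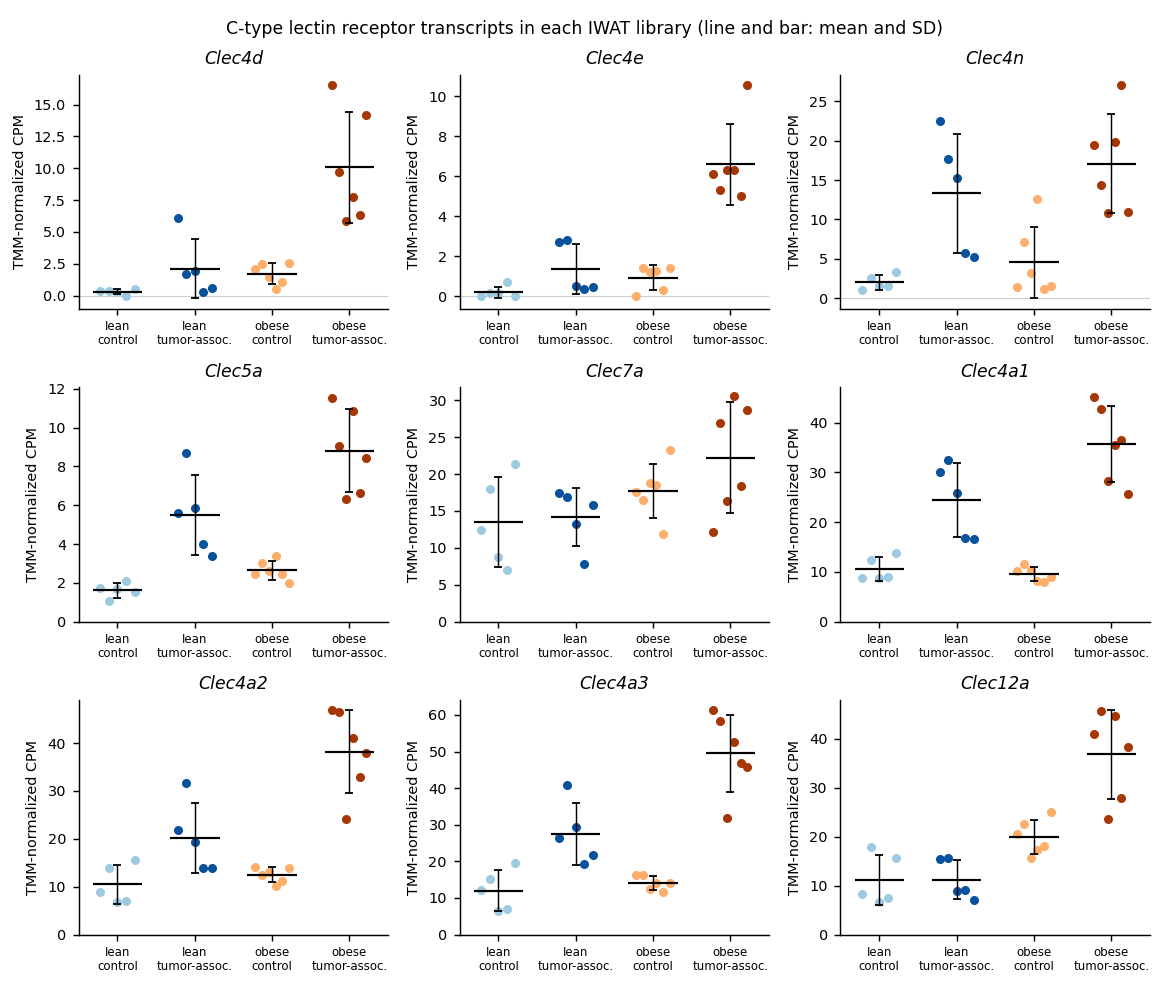
TMM-normalized CPM (linear axes) of the 9 receptors in each of the 22 libraries, with 1 point per library, grouped as lean control (n = 5), lean tumor-associated (n = 5), obese control (n = 6) and obese tumor-associated IWAT (n = 6); the line and bar give mean and SD. Clec4d and Clec4e are near 0 in lean control IWAT and reach 16.5 and 10.5 CPM in obese tumor-associated IWAT, whereas the groups of Clec7a overlap throughout.

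In lean mice, the question was which receptor transcripts differ between the pad with the tumor and the contralateral pad. In tumor-associated IWAT of lean mice 6 of the 9 receptors were called higher, namely Clec4a1, Clec4a2, Clec4a3, Clec4d, Clec4n and Clec5a, against 3.27% of all genes tested. The receptors were chosen with earlier results of these data known, so this count is not independent of those results. The increases ranged from 1.93-fold for Clec4a2 to 6.58-fold for Clec4n, and the median log2 fold change of the 9 was 1.21, against 0.0072 over all genes. The count was 3 without the tumor-associated library of lean mouse 2, 2 without both pads of lean mouse 0, 2 or 3, and 4 without the lymphocyte-rich libraries. In obese mice 8 of 9 were called higher, the exception being Clec7a, and the median was 1.81 against -0.015. That has to be read against a background in which 26.8% of all genes were called higher and 27.7% lower. In bulk tissue, more cells of a type and more transcript per cell cannot be told apart.

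Among the activating receptors that pair with FcRγ, Clec4d (MCL, which also brings Mincle to the cell surface) was almost absent from lean control IWAT. Its level was 0.348, 0.350, 0.306, 0 and 0.509 CPM in the control pads of lean mice 0, 2, 3, 6 and 9, which is 10 counts in all, and 6.06, 1.71, 1.90, 0.257 and 0.618 CPM in their tumor-associated pads. The highest value, in mouse 0, stood well above the other tumor-associated pads, and the pad of mouse 6 was within the range of the controls. The log2 fold change was 2.70 (SE 0.78, edgeR adjusted p = 0.0373), but without the tumor-associated library of lean mouse 0 it was 1.79 with an adjusted p of 0.193. The call was also lost without any one of the control libraries of lean mice 0, 2, 3 and 6 or the tumor-associated libraries of lean mice 2 and 3, with adjusted p from 0.0622 to 0.102, and without the 4 lymphocyte-rich libraries (2.72, adjusted p = 0.0845). In obese mice Clec4d ranged from 0.50 to 2.58 CPM (median 1.80) in control and from 5.89 to 16.5 CPM (median 8.72) in tumor-associated IWAT. These groups did not overlap (log2 fold change 2.56, SE 0.51, adjusted p = 0.000575).

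Clec4e, encoding Mincle, a sensor of mycobacterial cord factor and of the nuclear protein SAP130 released by dying cells, was the rarest of the 9. In lean mice 0, 2, 3, 6 and 9 it measured 0, 0.175, 0.153, 0.704 and 0 CPM in control IWAT, 6 counts in all, and 2.73, 2.80, 0.543, 0.386 and 0.463 CPM in tumor-associated IWAT. The control pad of mouse 6 exceeded 3 of the tumor-associated pads, and only mice 0 and 2 stood clear of all control values. The log2 fold change of 2.73 (SE 0.95) did not pass the threshold with edgeR (adjusted p = 0.0757), while DESeq2 gave 2.82 with an adjusted p of 0.0186. It passed with edgeR without the control library of lean mouse 6 (3.89, adjusted p = 0.0482), the tumor-associated library of lean mouse 6 (2.98, adjusted p = 0.0419) or the control library of obese mouse 0 (2.73, adjusted p = 0.049). In obese mice Clec4e was at 0 to 1.44 CPM (median 1.24) in control and at 5.01 to 10.5 CPM (median 6.20) in tumor-associated IWAT, without overlap. Its log2 fold change there was 2.76 (SE 0.58, adjusted p = 0.000771), and 2.57 (adjusted p = 0.0018) without the tumor-associated library of obese mouse 8, the highest.

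Clec4n, encoding Dectin-2, a receptor for fungal mannans, was separated by pad in lean mice. The control pads of lean mice 0, 2, 3, 6 and 9 held 1.05, 2.62, 1.53, 1.58 and 3.39 CPM, and their tumor-associated pads 22.6, 17.7, 15.2, 5.79 and 5.25 CPM. The groups did not overlap, and the tumor-associated pads of mice 6 and 9 lay far below those of the other 3 mice (log2 fold change 2.72, SE 0.59, adjusted p = 0.0131). The call held when any single library was left out. It was lost without both pads of lean mouse 0, 2 or 3 (edgeR adjusted p = 0.098, 0.0852 and 0.0858). In obese mice the control range was 1.23 to 12.6 CPM (median 2.40) and the tumor-associated range 10.8 to 27.1 CPM (median 16.9). Here the groups overlapped through the control pad of mouse 3 (12.6 CPM), followed by that of mouse 1 (7.18 CPM), which are the 2 libraries with the highest lymphocyte transcripts. The log2 fold change was 1.89 (SE 0.50, adjusted p = 0.00402). It was 2.52 (adjusted p = 0.000394) without the control library of obese mouse 3 and 3.10 (adjusted p = 0.00028) without the 4 lymphocyte-rich libraries, and the part of lymphoid material in this was not tested.

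Clec5a, which signals through DAP12 and is known as a receptor for flaviviruses, was higher in the tumor-associated pad in both diets. Its level in control pads of lean mice 0, 2, 3, 6 and 9 was 1.74, 1.05, 1.68, 2.11 and 1.53 CPM, against 5.60, 8.70, 5.84, 3.99 and 3.40 CPM in tumor-associated pads. Every tumor-associated value exceeded every control value (log2 fold change 1.75, SE 0.26, adjusted p = 0.000577). In obese mice it was at 2.00 to 3.37 CPM (median 2.53) in control and at 6.31 to 11.5 CPM (median 8.75) in tumor-associated IWAT, again without overlap (log2 fold change 1.72, SE 0.23, adjusted p = 1.45e-05). The difference between the diets in this change was -0.03 (SE 0.35).

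Clec7a, encoding Dectin-1, the β-glucan receptor with an ITAM-like motif in its own tail, was the receptor called in no comparison. In lean mice 0, 2, 3, 6 and 9 it measured 12.4, 18.0, 8.73, 7.04 and 21.4 CPM in control and 17.4, 16.9, 13.2, 7.85 and 15.8 CPM in tumor-associated IWAT. The tumor-associated values all lay within the range of the control pads (log2 fold change 0.07, SE 0.30, adjusted p = 0.986). In obese mice the control range was 11.8 to 23.2 CPM (median 18.1) and the tumor-associated range 12.2 to 30.6 CPM (median 22.6), with a log2 fold change of 0.32 (SE 0.27, adjusted p = 0.311).

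The Clec4a genes encode receptors of the DCIR family, of which Clec4a2 (DCIR1) carries an ITIM. Clec4a1 measured 8.71, 12.4, 8.73, 8.98 and 13.9 CPM in control pads of lean mice 0, 2, 3, 6 and 9 and 30.1, 32.5, 25.9, 16.9 and 16.5 CPM in their tumor-associated pads. The groups did not overlap (log2 fold change 1.21, SE 0.21, adjusted p = 0.00179). In obese mice Clec4a1 ranged from 7.98 to 11.6 CPM (median 9.57) in control and from 25.7 to 45.2 CPM (median 36.0) in tumor-associated IWAT, which gave the smallest p of the 9 (log2 fold change 1.90, SE 0.19, adjusted p = 9.52e-07).

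Clec4a2 measured 8.94, 13.8, 6.89, 7.04 and 15.6 CPM in lean control and 21.8, 31.7, 19.3, 13.9 and 13.9 CPM in lean tumor-associated pads (mice 0, 2, 3, 6 and 9). The control pad of mouse 9 lay above the tumor-associated pads of mice 6 and 9, so that in mouse 9 the control pad was the higher one (log2 fold change 0.95, SE 0.25, adjusted p = 0.0363). This call was lost without any one of 6 lean libraries (control of mice 0, 3 and 6, tumor-associated of mice 0, 2 and 3; adjusted p up to 0.178) and without the lymphocyte-rich libraries (1.05, adjusted p = 0.0547). In obese mice the groups were apart, at 10.1 to 14.2 CPM (median 12.7) against 24.1 to 46.8 CPM (median 39.6; log2 fold change 1.61, SE 0.22, adjusted p = 2.44e-05).

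Clec4a3 measured 12.1, 15.2, 6.43, 6.86 and 19.5 CPM in lean control and 26.4, 40.9, 29.5, 19.2 and 21.8 CPM in lean tumor-associated pads of the same mice. Only the control pad of mouse 9 reached into the tumor-associated range (log2 fold change 1.196, SE 0.26, adjusted p = 0.0120), and the call was lost without the tumor-associated library of lean mouse 2 (adjusted p = 0.0646). It was also lost without both pads of lean mouse 0, 2 or 3 (edgeR adjusted p = 0.0559, 0.0734 and 0.0842). In obese mice the groups were again apart, at 11.7 to 16.4 CPM (median 14.1) and 32.0 to 61.3 CPM (median 49.8; log2 fold change 1.81, SE 0.23, adjusted p = 1.29e-05).

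Clec12a, an ITIM receptor that binds uric acid crystals and dampens the response to dead cells, showed no shift between pads in lean mice that exceeded the spread. Control pads of lean mice 0, 2, 3, 6 and 9 held 8.36, 17.8, 6.74, 7.57 and 15.6 CPM and tumor-associated pads 15.4, 15.7, 8.83, 9.14 and 7.11 CPM. The tumor-associated pad was the higher one in 3 of 5 mice (log2 fold change 0.01, SE 0.28, adjusted p = 0.998), and the sign of so small a value depended on the scaling. In obese mice Clec12a ranged from 15.7 to 25.1 CPM (median 19.3) in control and 23.7 to 45.7 CPM (median 39.6) in tumor-associated IWAT. The groups overlapped narrowly, through the tumor-associated pad of mouse 2 and the control pad of mouse 8, and the difference was called (log2 fold change 0.89, SE 0.24, adjusted p = 0.00482).

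**Figure D2:**
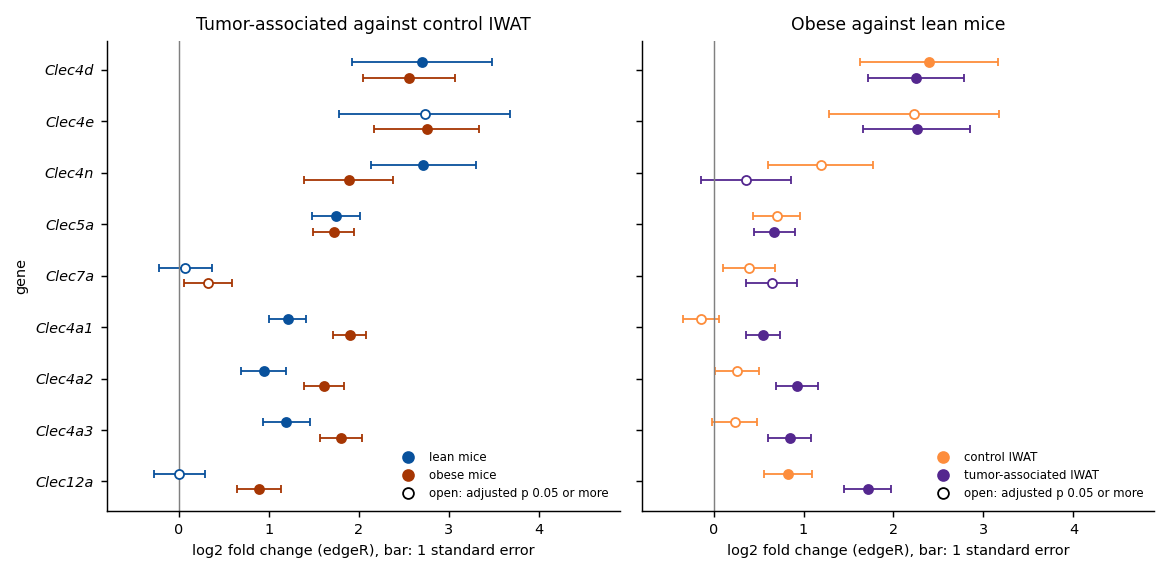
Log2 fold changes of the 9 receptors from edgeR (points) with 1 standard error (bars), for the tumor-associated against the control pad in lean and obese mice (left) and for obese against lean mice in either pad (right); filled points have an adjusted p under 0.05. Clec4d and Clec4e carry the widest errors, and Clec7a is the only receptor with an open point in all 4 comparisons.

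Within mice, the pad-to-pad change on the log2 CPM scale (prior count 2, which shrinks rare genes) was positive for 5 of 5 lean and 6 of 6 obese mice for Clec4a1, Clec4a3, Clec4d, Clec4n and Clec5a. Clec4a2 and Clec4e were higher in the tumor-associated pad in 4 of 5 lean and 6 of 6 obese mice, Clec12a in 3 of 5 and 6 of 6, and Clec7a in 3 of 5 and 4 of 6. Mean changes in obese mice ran from 0.27 ± 0.52 (SD, n = 6) for Clec7a to 2.70 ± 1.01 for Clec4e. The spread between mice was narrow for Clec4a3 in obese mice, 1.77 ± 0.24 with all 6 mice between 1.33 and 1.98, and wide for Clec4n, 2.25 ± 1.41 with mice from 0.64 to 4.17.

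**Figure D3:**
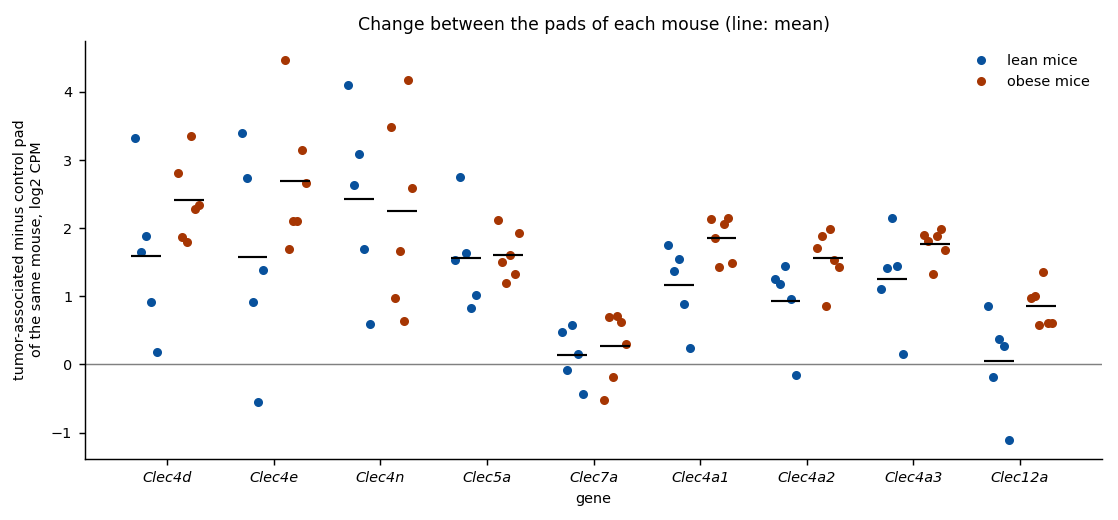
Change of each receptor from the control to the tumor-associated pad of the same mouse, in log2 CPM (prior count 2), for 5 lean and 6 obese mice (points) with the mean (line). For Clec4a1, Clec4a3, Clec4d, Clec4n and Clec5a all 11 mice lie above 0.

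The second question was how the diet bears on the receptors in either pad. The 2 diet comparisons use the same libraries as the tumor comparisons, so the values are given side by side. In control IWAT of obese against lean mice 2 of 9 receptors were called higher, Clec4d (log2 fold change 2.40, SE 0.77, adjusted p = 0.0244) and Clec12a (0.83, SE 0.26, adjusted p = 0.0367), against 9.54% of all genes. Both groups overlapped for both genes, and both calls depended on single libraries. Without the 4 lymphocyte-rich libraries Clec4d had an adjusted p of 0.0746 and Clec12a of 0.0396, and 0 to 3 of the 9 were called when single libraries were left out. Clec4d and Clec12a both lost their call without the control library of lean mouse 0, 3 or 6, and Clec12a also without that of obese mouse 0, 1 or 8. Clec4e had a similar log2 fold change, 2.23, with a wider error (SE 0.94, adjusted p = 0.0720), and was called without the control library of lean mouse 6 (3.38, adjusted p = 0.0327) or of obese mouse 0 (2.47, adjusted p = 0.0358). Clec4n was at 1.19 (SE 0.58, adjusted p = 0.165), but at 0.54 (adjusted p = 0.554) without the control library of obese mouse 3 and at 0.029 (adjusted p = 0.985) without the 4 lymphocyte-rich libraries. Clec5a was at 0.70 (SE 0.26, adjusted p = 0.0640) and the 3 Clec4a genes between -0.14 and 0.26.

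In tumor-associated IWAT of obese against lean mice 7 of 9 were called higher, against 24.7% of all genes tested. The largest log2 fold changes were those of Clec4e (2.26, SE 0.60, adjusted p = 0.00508) and Clec4d (2.25, SE 0.53, adjusted p = 0.00256), followed by Clec12a (1.71, SE 0.26, adjusted p = 6.64e-05). For Clec4e and Clec12a every obese library exceeded every lean one, while for Clec4d the tumor-associated pad of lean mouse 0 (6.06 CPM) lay above that of obese mouse 2 (5.89 CPM), and without that lean library the log2 fold change was 3.15. Clec4a2 (0.93, SE 0.23), Clec4a3 (0.85, SE 0.24), Clec5a (0.68, SE 0.23) and Clec4a1 (0.55, SE 0.19) were called as well, with adjusted p from 0.00321 to 0.0243. The calls of Clec4a1 and Clec5a were lost without the tumor-associated library of lean mouse 6 or 9 or of obese mouse 0, with adjusted p from 0.056 to 0.0777, and with only these 2 groups in the fit (adjusted p = 0.0726 and 0.067), and that of Clec4a1 also with upper-quartile normalization (adjusted p = 0.055). Clec4n (0.36, SE 0.50, adjusted p = 0.577) and Clec7a (0.64, SE 0.28, adjusted p = 0.0669) were not called; without the tumor-associated library of obese mouse 0 Clec7a was (adjusted p = 0.0306).

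Whether the tumor change itself differed between diets was tested as an interaction. With edgeR 0 of the 9 receptors were called, against 4.92% of all genes. DESeq2, which called more genes than edgeR in this test over all genes, likewise called 0 receptors. An unadjusted edgeR p under 0.05 was found for 2 of the 9, against 4760 of all 14458 genes tested, which is a larger share. The 2 receptors were Clec4a1 (obese minus lean change 0.69, SE 0.28, edgeR adjusted p = 0.0999) and Clec12a (0.88, SE 0.37, edgeR adjusted p = 0.11). Clec12a, called between pads in obese and not in lean mice, is therefore not shown to respond differently in the 2 diets. For Clec4d and Clec4e the standard errors of the difference were 0.94 and 1.12, so that differences of several fold were not detectable at this depth.

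The receptors were set beside genes of the cells that carry them. The gene lists were chosen with earlier results of these data known, so their counts are not independent of those results. Of 10 macrophage genes (Emr1, Cd68, Csf1r, Mertk, C1qa, C1qb, C1qc, Fcgr1, Lyz2 and Cd163), 7 were called higher in lean and 8 in obese tumor-associated IWAT, against 3.27% and 26.8% of all genes. Their summed level was 685.6 to 1442 CPM in lean control, 1512 to 2892 in lean tumor-associated, 1102 to 1508 in obese control and 1476 to 3944 CPM in obese tumor-associated IWAT. Of 6 monocyte genes (Ly6c2, Ccr2, Plac8, Vcan, Chi3l3 and F13a1) 5 and 6 were called higher, with sums of 331.7 to 447.5, 742.1 to 1476, 313.1 to 482.1 and 605.8 to 1844 CPM in the same order of groups. Of 7 dendritic cell genes (Flt3, Zbtb46, Xcr1, Itgax, Irf8, Ccr7 and Siglech) 0 were called in lean mice, and 0 were called higher and 1 lower in obese mice. They summed to 51.0 to 121.2, 68.3 to 111.9, 91.2 to 293.1 and 102.6 to 239.1 CPM in the same order of groups. The highest sums, 293.1 and 288.0 CPM, were in the lymphocyte-rich control pads of obese mice 3 and 1. In obese mice the tumor-associated pads also held fewer adipocyte transcripts, 2201 to 13149 CPM against 15683 to 29049 CPM in control pads, with 6 of 6 genes called lower, and 4 of 5 epithelial genes (Epcam, Krt8, Krt18, Krt14 and Krt5) were called lower there. Over all genes 27.7% were called lower in that comparison. The part of these shifts in the receptor results was not tested.

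Neutrophils also express Clec4d and Clec4e, and 11 of their genes were listed. S100a8 was at 0 to 5.44 CPM and S100a9 at 0 to 5.13 CPM over all 22 libraries, and the lean tumor-associated library with the highest Clec4d (mouse 0, 40 counts) held 1 count of S100a8 and 1 of S100a9. Clec4e was highest in the lean tumor-associated libraries of mice 2 and 0, with 18 counts in each (2.80 and 2.73 CPM). That of mouse 2 held 35 counts of S100a8 and 33 of S100a9, the most of any library, and that of mouse 0 held 1 of each. In obese mice, S100a8 averaged 2.08 ± 1.02 CPM in control and 0.998 ± 0.428 CPM in tumor-associated IWAT (SD, n = 6), S100a9 0.475 ± 0.31 and 0.956 ± 0.803 CPM, Retnlg 0.0942 ± 0.0736 and 0.265 ± 0.233 CPM, and Csf3r, the G-CSF receptor, 6.16 ± 1.94 and 18.7 ± 5.18 CPM. In the same groups Clec4d averaged 1.70 ± 0.82 and 10.1 ± 4.37 CPM. Among the listed neutrophil genes 3 passed the filter on low counts. Csf3r was called higher in both tumor comparisons (log2 fold change 1.34, SE 0.28, adjusted p = 0.00857 in lean mice and 1.60, SE 0.25, adjusted p = 6.31e-05 in obese mice). The other 2 were called in neither, and the median log2 fold change of the 3 in obese mice was -0.47. In obese mice Ltf, lactoferrin, averaged 98.0 ± 29.9 CPM in control and 70.7 ± 51.7 CPM in tumor-associated IWAT, and Cxcr2 2.14 ± 3.12 and 0.854 ± 0.693 CPM. The highest Cxcr2 values, 7.04 and 5.12 CPM, were in the lymphocyte-rich control pads of mice 1 and 3. The summed level of the list (36.9 to 434.2 CPM) included Ltf at 13.3 to 418.9 CPM. The part of neutrophils in the receptor results was not tested.

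Relative to the macrophage genes, the receptors fell into different patterns. The mean log2 CPM of the 10 macrophage genes was higher in the tumor-associated than in the control pad by 1.26 ± 0.42 (SD, n = 5) in lean and by 1.27 ± 0.47 (n = 6) in obese mice. The log2 level of Clec7a minus that of the macrophage genes changed by -1.12 ± 0.45 in lean mice, lower in 5 of 5, and by -1.001 ± 0.69 in obese mice, lower in 5 of 6. Clec12a changed by -1.21 ± 0.64 in lean mice, lower in 5 of 5, and by -0.42 ± 0.36 in obese mice, lower in 5 of 6. Both receptors thus lagged behind the macrophage genes in nearly every mouse. The 3 Clec4a receptors stayed close to the macrophage genes in lean mice, with mean relative changes of -0.10, -0.32 and -0.0030 for Clec4a1, Clec4a2 and Clec4a3, and were at 0.58 ± 0.58, 0.29 ± 0.39 and 0.49 ± 0.49 in obese mice. Clec4d and Clec4e exceeded them in obese mice, by 1.13 ± 0.59 and 1.43 ± 1.16 with 6 of 6 mice higher, and had wide spreads in lean mice (0.34 ± 0.97 and 0.32 ± 1.39). The prior count of 2 shrinks the lean changes of these rare genes. Their mean lean changes were 1.59 and 1.57 on this scale, against edgeR log2 fold changes of 2.70 and 2.73. By edgeR their obese minus lean tumor changes were -0.14 (SE 0.94) and 0.03 (SE 1.12), so a difference between the diets is not shown. Clec4n was at 1.17 ± 1.08 in lean and 0.98 ± 1.71 in obese mice, higher in 4 of 5 and 4 of 6, and Clec5a at 0.30 ± 0.43 and 0.34 ± 0.36, higher in 4 of 5 and 5 of 6. In obese mice, mouse 4 gave the highest relative change of every receptor except Clec4e, and the macrophage genes rose least in it (by 0.52). Its values were 1.63, 1.01 and 1.46 for Clec4a1, Clec4a2 and Clec4a3 and 3.65 for Clec4n. It was also the mouse in which Clec7a (0.11) and Clec12a (0.09) were not lower. The part of this mouse in the means was not tested. All these relative changes are descriptions and were not tested.

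**Figure D4:**
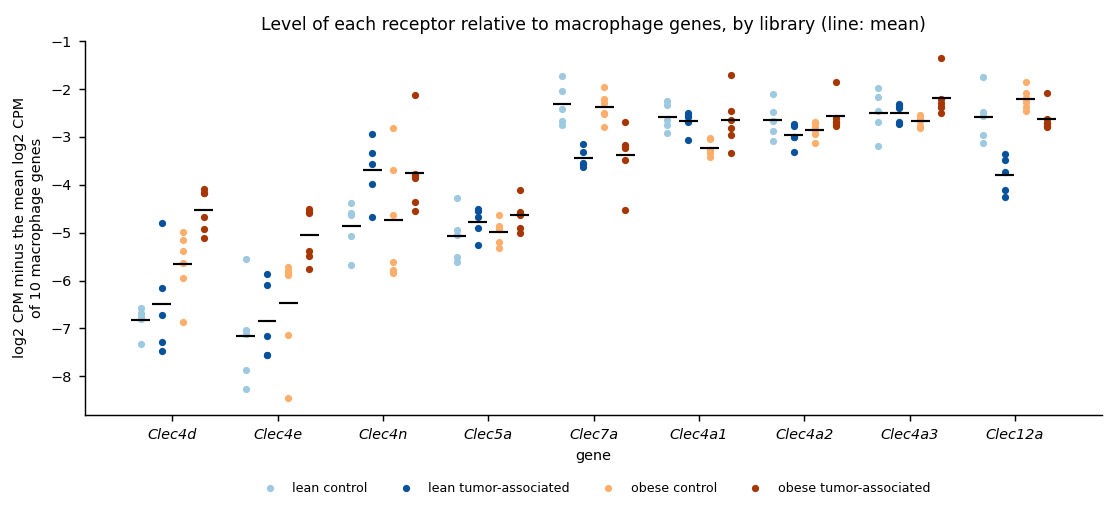
Log2 CPM of each receptor minus the mean log2 CPM of 10 macrophage genes in each library (points, 4 groups) with the group mean (line). Clec7a is lower in the tumor-associated groups of both diets (means -3.44 and -3.37) than in control (-2.32 and -2.37), and Clec4d is highest in obese tumor-associated IWAT (-4.52).

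Across libraries the receptors varied together to different degrees. Correlations of the deviations from the 4 group means over the 22 libraries, all subject to the same depth and tissue composition, had a median Pearson r of 0.43 over the 36 pairs and ran from -0.06 (Clec5a and Clec7a) to 0.91 (Clec4a2 and Clec4a3). Clec4a2 was also close to Clec12a (r = 0.89), although these genes lie in different clusters, whereas the neighbours Clec4d and Clec4e were at r = 0.26. Among the 10 genes whose deviations were most like the mean of the 9 were Mpeg1 (r = 0.90), Ctss (0.89), Cybb (0.88), Themis2 (0.88), Nlrp1c-ps (0.87), Nlrp1b (0.87), Mknk1 (0.87), Milr1 (0.86) and Msr1 (0.85), over the same 22 libraries, against a median of -0.04 over all genes.

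Of 15 genes of receptor signaling, 4 were called higher in lean tumor-associated IWAT, against 3.27% of all genes tested. In obese mice 7 were higher and 2 lower, against 26.8% and 27.7% of all genes. Fcer1g, the FcRγ chain on which Clec4d, Clec4e and Clec4n depend, was 18.8 ± 4.64 CPM in lean control and 51.6 ± 19.3 CPM in lean tumor-associated IWAT (SD, n = 5; log2 fold change 1.45, SE 0.23, adjusted p = 0.00111). In obese mice it was 24.8 ± 4.06 and 99.3 ± 21.8 CPM (n = 6; log2 fold change 2.00, SE 0.21, adjusted p = 1.7e-06). Both adaptors were higher in both diets, Tyrobp (DAP12) with log2 fold changes of 1.02 (SE 0.26, adjusted p = 0.0307) in lean and 1.32 (SE 0.23, adjusted p = 0.000189) in obese mice. So was the Src family kinase Lyn, with log2 fold changes of 0.64 (SE 0.17, adjusted p = 0.0335) in lean and 0.65 (SE 0.15, adjusted p = 0.00142) in obese mice. The scaffold Card9 was at 0.69 (SE 0.26, adjusted p = 0.162) in lean mice and was called higher in obese mice (1.49, SE 0.23, adjusted p = 5.38e-05). The genes called lower in obese tumor-associated IWAT were the paracaspase Malt1 (-0.76, SE 0.23, adjusted p = 0.00909) and the phosphatase Ptpn11 (-0.46, SE 0.10, adjusted p = 0.000968). Malt1 was 89.4 ± 43.8 CPM in the control and 52.8 ± 10.8 CPM in the tumor-associated pads of obese mice, with a control range of 54.3 to 147.7 CPM that includes both lymphocyte-rich control libraries, whose part in this was not tested. By diet, 7 of the 15 were called higher in control pads of obese mice and 9 in their tumor-associated pads, against 9.54% and 24.7% of all genes. Some of the 15 spread widely over the obese control pads, such as Ptpn6 (18.1 to 145.2 CPM) and Syk (63.5 to 227.7 CPM). Others, such as Fcer1g (20.6 to 31.8 CPM), did not. The part of the lymphocyte-rich libraries in these diet calls was not tested.

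Of 6 genes listed as ligands or their makers, 2 were called higher in the tumor-associated pads of either diet, Lgals9 and Vim. Over all genes tested the share called higher was 3.27% in lean and 26.8% in obese mice. Lgals9 (galectin-9) was 56.2 ± 3.61 CPM in lean control and 118 ± 26.5 CPM in lean tumor-associated IWAT (log2 fold change 1.07, SE 0.16, adjusted p = 0.0005), and its log2 fold change in obese mice was 1.13 (SE 0.14, adjusted p = 9.52e-06). Vim (vimentin) changed by 0.60 (SE 0.16, adjusted p = 0.0393) and 1.04 (SE 0.15, adjusted p = 2.81e-05). The gene with the symbol Sap130 shares its name with the Mincle ligand but is a different gene, and the ligand's own gene was not listed. Sap130 was at -0.05 (SE 0.13) and 0.23 (SE 0.11), and Anxa1 at 0.40 (SE 0.20) and -0.0014 (SE 0.18). Xdh, whose product makes uric acid, was at 0.25 (SE 0.16) and -0.16 (SE 0.15). None of these genes was called.

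Of 11 genes known to be induced downstream of these receptors, 8 passed the filter on low counts (not Il6, Il23a and Csf2). Of these 1 was called higher in lean and 6 in obese tumor-associated IWAT, against 3.27% and 26.8% of all genes. Il10, the anti-inflammatory cytokine, was the gene called in lean mice (log2 fold change 2.41, SE 0.67, adjusted p = 0.0334), on 0 to 4 counts per control library, and was at 2.24 (SE 0.51, adjusted p = 0.00113) in obese mice. Il1b was 1.35 ± 0.50 and 3.24 ± 1.96 CPM in lean control and tumor-associated IWAT (log2 fold change 1.24, SE 0.54, adjusted p = 0.25) and 1.06 ± 0.84 and 11.6 ± 7.58 CPM in obese mice (3.41, SE 0.49, adjusted p = 3.41e-05). The inflammasome sensor Nlrp3 was at 1.15 (SE 0.37, adjusted p = 0.0866) in lean and 2.23 (SE 0.34, adjusted p = 5.26e-05) in obese mice, and the cyclooxygenase gene Ptgs2 at 0.94 (SE 0.56, adjusted p = 0.453) and 1.95 (SE 0.46, adjusted p = 0.00186). Tnf was called in neither (0.52, SE 0.51, and 0.59, SE 0.43). Cxcl1 and Cxcl2, named after their values were seen, completed the 6 in obese mice. By diet, 4 of the 8 were called higher in tumor-associated IWAT, against 24.7% of all genes.

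**Figure D5:**
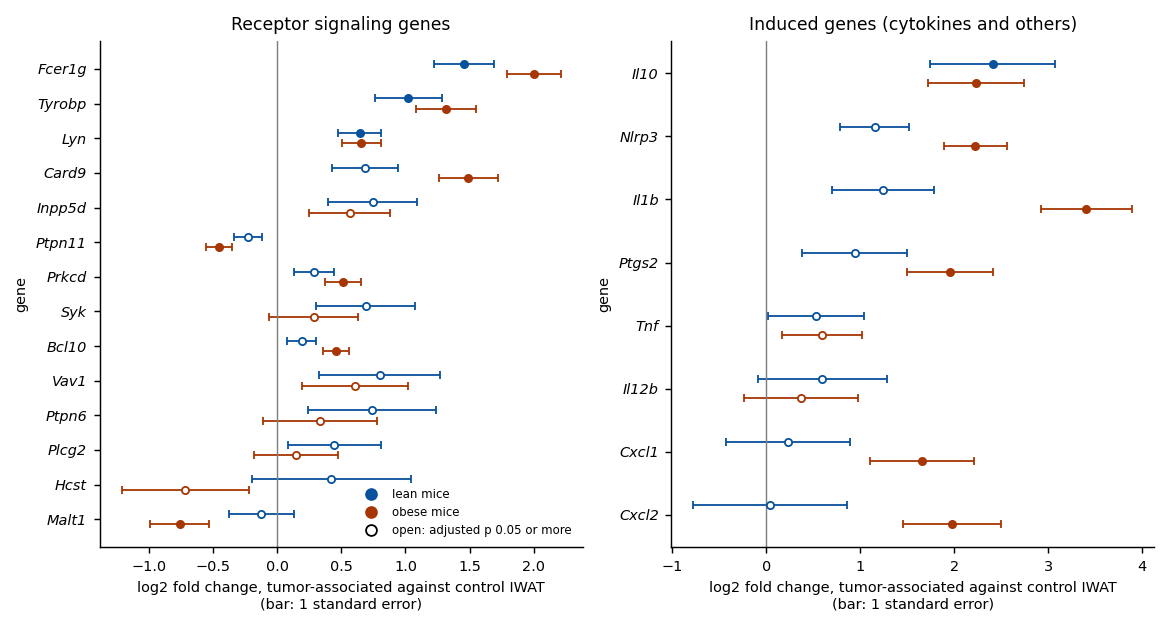
Log2 fold changes from edgeR (points) with 1 standard error (bars) for the tumor-associated against the control pad in lean and obese mice, for receptor signaling genes (left) and 8 induced genes that passed the filter on low counts (right); filled points have an adjusted p under 0.05. Fcer1g, Tyrobp and Lyn are filled in both diets, and Malt1 and Ptpn11 are the filled points below 0.

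Of 31 other C-type lectin genes listed, 21 passed the filter on low counts. Of these 2 were called higher in lean tumor-associated IWAT, against 3.27% of all genes. In obese tumor-associated IWAT 6 were higher and 3 lower, where 26.8% of all genes were called higher and 27.7% lower. The mannose receptor Mrc1 (log2 fold change 1.47, SE 0.32, adjusted p = 0.0146 in lean; 1.71, SE 0.29, adjusted p = 0.000165 in obese mice) and the galactose-type lectin Clec10a (1.39, SE 0.34, adjusted p = 0.0233; 0.93, SE 0.30, adjusted p = 0.0147) were called in both diets. Cd209f (1.48 in lean, adjusted p = 0.0604; 1.63 in obese, adjusted p = 0.00224) and Cd209g (1.46, adjusted p = 0.0579; 1.52, adjusted p = 0.00374), members of the DC-SIGN family, were called in obese mice, and Cd209d (1.53, adjusted p = 0.0713; 0.26, adjusted p = 0.618) in neither. DESeq2 called 5 of the 21 in lean and 11 in obese mice, but the shares of all genes given above are those of edgeR. In lean mice DESeq2 also called more genes than edgeR over all genes. The lectins called lower in obese tumor-associated IWAT were Clec14a, an endothelial gene (-0.85, SE 0.30, adjusted p = 0.0243), Pla2r1, the phospholipase A2 receptor (-0.73, SE 0.27, adjusted p = 0.0248), and Clec2d, a ligand of NK cell receptors (-0.45, SE 0.16, adjusted p = 0.0214).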

How the data were processed

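Both fat pads of 5 lean and 6 obese mice gave 22 RNA-sequencing libraries, which the labels place by diet, pad and mouse. Per the study's methods and the submitters' processing notes, reads were checked with FastQC, trimmed (prinseq) and aligned to mm10 (STAR 2.4.0f). HTSeq then gave the raw counts that the authors deposited for 23420 symbols; strand setting and annotation are not given in the sources used here. The 5 lines of HTSeq totals were left out: reads on no feature were 38.5% to 48.8%, reads mapped to several places 15.1% to 18.9% and ambiguous reads 0.166% to 0.342% of the table. Libraries held 5759775 to 8598108 counts on genes (median 6953882), so a gene near 1 CPM rests on few counts, and libraries of a group differed by more than sampling noise (chi-square over its degrees of freedom at least 4.93).

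Counts were tested in R 4.3.3 with edgeR 4.0.16 (TMM, default filter by group, quasi-likelihood test, adjusted p under 0.05); standard errors are Wald errors from the same fit. Log2 CPM used a prior count of 2, RPKM the exon lengths of GENCODE M21, and 50-base words its transcripts. Both pads of a number came from 1 mouse: deviations from group means correlated with median r of 0.51 in lean (over 0.1 in 5 of 5 mice) and 0.17 in obese mice (4 of 6). The script was tested on simulated data with 200 changed genes. The receptors and gene lists were chosen with earlier results of these data known. All 9 members were described; from each list the 5 genes with the smallest p in lean tumor-associated IWAT and those called lower in either tumor comparison were named, apart from a few genes not reported here. Alternatives were DESeq2 1.42.0, other normalizations and filters, the groups alone, a mouse block, thinning to equal depth, and libraries or mice left out.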

Additional observations from a re-analysis of the deposited data

Results flagged for a closer look

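Among the 36 combinations of receptor and group, 3 held a library that stood apart from the others of its group by Dixon's criterion, which chance alone gives in about 1 in 20 groups. Clec4d measured 6.06 CPM in the tumor-associated pad of lean mouse 0, against at most 1.90 CPM in the other 4 lean tumor-associated pads. Clec4e measured 0.704 CPM (4 counts) in the control pad of lean mouse 6, against at most 0.175 CPM in the other lean control pads, and 10.5 CPM in the tumor-associated pad of obese mouse 8, against at most 6.32 CPM in the other obese tumor-associated pads. Without the control library of lean mouse 6, the Clec4e log2 fold change between pads in lean mice was 3.89 (edgeR adjusted p = 0.0482) rather than 2.73, and by diet in control IWAT 3.38 (edgeR adjusted p = 0.0327) rather than 2.23. Without the tumor-associated library of obese mouse 8, it was 2.57 (edgeR adjusted p = 0.0018) between pads in obese mice and 2.07 (edgeR adjusted p = 0.0111) by diet in tumor-associated IWAT. The values of Clec4d without the tumor-associated library of lean mouse 0 were 1.79 (edgeR adjusted p = 0.193) between pads in lean mice and 3.15 (edgeR adjusted p = 0.000241) by diet in tumor-associated IWAT.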

How the results depend on the processing

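In lean mice, 6 receptors were called between pads, 3 when at least 10 counts were required in every library (which removes rare receptors), 4 without the filter on low counts, with the groups alone or without the 4 lymphocyte-rich libraries, and 7 with DESeq2. Leaving out single libraries or mice gave 2 to 7, with 3 without the tumor-associated library of lean mouse 2 and 2 without both pads of lean mouse 0, 2 or 3. In obese mice the 8 calls became 4 with at least 10 counts and stayed at 8 in every leave-out. By diet, the 2 calls in control IWAT became 1 with upper-quartile normalization, 1 with at least 10 counts, 0 after thinning and 1 without the lymphocyte-rich libraries (0 to 3 over leave-outs), and the 7 in tumor-associated IWAT became 4 with at least 10 counts, 6 with upper-quartile normalization and 5 with the groups alone (5 to 7 over leave-outs). The interaction stayed at 0 throughout. With a replicate block that pairs the pads of each mouse, 6, 8 and 0 members were called in the lean, obese and interaction tests, and no call changed.

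Most values that changed sign lay near 0. Clec12a between pads in lean mice was -0.0073 with DESeq2, -0.035 with upper-quartile and -0.0070 with RLE normalization, -0.0079 without a filter, -0.0077 with at least 10 counts and -0.0059 with the groups alone, and -0.23 to 0.28 over leave-outs; Clec7a ran from -0.087 to 0.30. In the interaction, thinning gave 0.12 for Clec4d, -0.46 for Clec4e and 0.014 for Clec5a, DESeq2 gave -0.034 for Clec4e, the replicate block 0.011 for Clec5a, and the lymphocyte-rich libraries left out 0.29 for Clec4n (-0.83 with all libraries) and 0.19 for Clec5a. Leave-outs ran from -0.60 to 0.77 for Clec4d, -1.37 to 0.81 for Clec4e and -0.23 to 0.32 for Clec5a. The cause was not tested. Over all genes, DESeq2 called 918 rather than 605 in lean mice and 2365 rather than 711 in the interaction, which fell to 18 without a filter and 4 without the lymphocyte-rich libraries. Leaving out mice or the lymphocyte-rich libraries and the limit of 40 CPM were chosen after seeing the data. Clec4d and Clec4e rest on 10 and 6 counts in all lean control libraries, which limits their fold changes.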
